A study of Mus musculus with 7 samples.

Results

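The 9 genes described here are the CC chemokines that recruit monocytes and related leukocytes, Ccl2, Ccl3, Ccl4, Ccl5, Ccl7, Ccl8 and Ccl12, and the receptors Ccr1 and Ccr2. They were taken by their symbols from the 32285 genes of the deposited gene list, and all 9 were found. Each was described by cell class and library in droplet single-cell RNA sequencing of whole brain tumours, in which every library holds the pooled tumours of 2 or more mice, taken near day 14. The tumours were grown in C57BL/6 mice of 7 to 10 weeks from NSCG-mCherry, a mouse glioma line that is EGFRvIII+ and Arf/Ink4a-/-. The label WT is given as the genotype of every sample, so all groups share the same line and host.

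The 7 libraries fall into 5 groups. UT (1 library) is the untreated control. IgG (2 libraries) received 10 mg/kg of an IgG2b isotype control. BP (2 libraries) received 5 mg/kg of the anti-VEGF antibody B20 and 10 mg/kg of anti-PD-L1, both every 3 days. BPI (1 library) received the same pair of antibodies and a daily oral dose of 10 mg/kg of the inhibitor IPI-145. CD40 (1 library) received 2 doses of 100 µg of a CD40 agonist 5 days apart. The labels leave unsaid whether those mice also had a dendritic cell vaccine. The study asked how such tumours and their immune microenvironment adapt to immunotherapy.

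CC chemokines are small secreted proteins that bind G protein-coupled receptors on leukocytes and draw these cells along a gradient. Ccl2, Ccl7 and Ccl12 are ligands of CCR2, the receptor by which Ly6C-high monocytes leave the bone marrow and enter inflamed tissue. Ccl3, Ccl5 and Ccl7 act through CCR1. In glioma, microglia, infiltrating macrophages and tumour cells are all known sources of CCL2. Levels below are in CPM, the unique molecular identifiers (UMIs) of a gene summed over the cells of a class in a library and scaled to the same total, and UMIs of this 3′ kit count transcripts without regard to their length. For the 2 IgG and the 2 BP libraries, the value of replicate 1 comes first. A change over all cells of a tumour can come from more cells of a type or from more RNA per cell, and these cannot be told apart in such sums.

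On the mouse build GRCm38, 7 members lie on chromosome 11 and both receptors on chromosome 9. Ccl2 (chr11:82035571-82037453), Ccl7 (chr11:82045712-82047525), Ccl12 (chr11:82101845-82103400) and Ccl8 (chr11:82115185-82116799) stand in a row on the plus strand. Ccl2 and Ccl7 are 8258 bases apart, Ccl7 and Ccl12 54319, and Ccl12 and Ccl8 11784. Ccl5 (chr11:83525778-83530518, minus strand), Ccl3 (chr11:83647844-83649355, minus strand) and Ccl4 (chr11:83662584-83664683, plus strand) form a separate group, with 13228 bases between Ccl3 and Ccl4. Ccr1 (chr9:123962124-123968692, minus strand) and Ccr2 (chr9:124101950-124113557, plus strand) are 133257 bases apart. All 9 are protein-coding in the GENCODE annotation.

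Ccl12 and Ccl8 are next to each other and differed in that Ccl8 was near 0 in 5 libraries and Ccl12 in none, so the 250 bases before the start of each are shown, from the RefSeq table of GRCm38.p6. Both are on the plus strand, at chr11:82101595-82101844 for Ccl12 and chr11:82114935-82115184 for Ccl8. Capitals mark the matches to GAGGAA, a core read by the myeloid factor PU.1 (on the other strand TTCCTC), and to TATAAA, the TATA box.
Ccl12: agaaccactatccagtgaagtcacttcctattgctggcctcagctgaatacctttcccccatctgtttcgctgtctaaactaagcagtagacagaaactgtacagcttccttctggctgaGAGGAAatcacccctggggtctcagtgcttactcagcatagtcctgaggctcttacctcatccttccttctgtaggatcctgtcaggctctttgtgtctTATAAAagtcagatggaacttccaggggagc
Ccl8: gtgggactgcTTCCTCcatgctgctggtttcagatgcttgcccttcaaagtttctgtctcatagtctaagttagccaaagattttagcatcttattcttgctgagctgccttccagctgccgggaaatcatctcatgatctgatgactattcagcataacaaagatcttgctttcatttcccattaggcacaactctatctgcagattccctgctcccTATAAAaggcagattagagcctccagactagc
The TATAAA match began 31 bases before the start in Ccl12 and 32 in Ccl8, and the GAGGAA match 130 and 240 bases before it. Of the 5 members with an entry in the table (Ccl3, Ccl8, Ccl12, Ccr1 and Ccr2), 4 held GAGGAA, which is also in 23.3% of all 32851 windows of this length, while TATAAA is in 12.4%. Neither TGANTCA (AP-1, in 6.75% of windows), the interferon-stimulated response element (2.98%) nor the NF-kB motif (3.90%) had a match on either strand in the 5 windows. These matches are letters only, and TATAAA was added to the motifs after the sequences had been seen.

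After filtering, 48588 cells were kept from libraries of 68997476 to 186793886 UMIs, with a median of 8583 to 17434 UMIs per kept cell. Cells were clustered and a cluster was called "X-like" from its marker genes. Unnamed cells made up 2.24% to 31.8% of a library, the highest share being that of UT. In UT they held 32999260 of the 75176541 UMIs of kept cells, more than the 31493906 of tumour-like cells. The UT levels of the named classes leave these cells out. The libraries fell into 3 sets that were not wholly separate. A tumour-like cluster led by Gfap and A2m had 20 or more cells in UT, BP replicate 1, IgG replicate 2 and CD40. UT and BP replicate 1 shared 3 tumour-like clusters in which no other library had 20 cells, and they held 331 and 1382 macrophage-like cells against 42 to 169 elsewhere. IgG replicate 1, BP replicate 2 and BPI, whose library numbers are consecutive, shared another set of tumour-like clusters, as did CD40 and IgG replicate 2, whose numbers are consecutive too. Any 2 libraries shared at most 26 cell barcodes, and at most 0.38% of the smaller library.

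The class names were checked against the marker lists. Monocyte-like cells were few in IgG replicate 2 (15 cells) and CD40 (29), where the monocyte list summed to 2606 and 3871 CPM against 7653 to 22210 in the other libraries. The values of these 2 libraries for that class are weak. Among the 7 microglia-like clusters, 5 were led more by macrophage-list genes (C1qa, C1qb, C1qc, Apoe) than by genes of the microglia list. The naming rule treated these genes as shared by microglia and macrophages, so they do not show which type these clusters are. Microglia-like levels are therefore given per library, and no treatment test is read from them. The other 2 clusters, led by microglial genes, held 92 to 507 cells in the 5 libraries other than UT (16 cells) and BP replicate 1 (0), and are called the strict microglia-like clusters.

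Ccl2, the main CCR2 ligand, came from the myeloid cells and, at a lower level per cell, from the tumour cells. Microglia-like cells held 1243 CPM in UT, 1382 and 415 in the IgG pair, 330 and 1200 in the BP pair, 2664 in BPI and 518 in CD40. In macrophage-like cells the values in the same order were 934, 1432, 361, 177, 1246, 1983 and 290 CPM. In the strict microglia-like clusters Ccl2 was 635 and 414 CPM in the IgG pair, 819 in BP replicate 2, 1070 in BPI and 558 in CD40. They held 188 of the 1269 microglia-like Ccl2 UMIs of IgG replicate 1 and 312 of the 2160 of BPI. Both classes had their lowest Ccl2 in IgG replicate 2, BP replicate 1 and CD40 and their highest in BPI, and the 2 replicates of a treatment differed by more than 3-fold. Monocyte-like cells held 1714, 1444, 377, 2059 and 1932 CPM in UT, IgG replicate 1, BP replicate 1, BP replicate 2 and BPI. They had 86.3 CPM in CD40, and no UMI was counted in the 15 cells of IgG replicate 2, where a count of 0 allows up to 30.3 CPM. The order of the 3 myeloid classes was not fixed: microglia-like exceeded monocyte-like cells in 3 of 7 libraries, and monocyte-like exceeded macrophage-like cells in 4 of 7.

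Tumour-like cells had a far lower level of Ccl2 than microglia-like and macrophage-like cells in all 7 libraries, and than monocyte-like cells in all but IgG replicate 2, where the latter had no UMI. Their level was 78.9 CPM in UT, 11.9 and 1.19 in the IgG pair, 16.2 and 24.9 in the BP pair, 47.0 in BPI and 1.53 in CD40. It was highest in UT and BPI and near 1 in IgG replicate 2 and CD40, and the 2 IgG libraries lay 10-fold apart. The 1710 unnamed UT cells, of unknown type, held 759 Ccl2 UMIs against 2485 in tumour-like cells and are not in this level. The estimated free RNA, from near-empty barcodes, would bring 0.57 to 6.67 CPM to tumour-like cells. It reached a large part of the level only in IgG replicate 2 (0.57 CPM) and CD40 (0.80 CPM). After each cell was thinned to 1000 UMIs, 2.63% of tumour-like cells in BP replicate 2 and 3.58% in BPI held a Ccl2 UMI, against 0% and 0.70% of T-like cells and 0% of B-like cells. In UT the share was 4.16%, which is not above the 5.13% of B-like cells there, and without thinning it was 21.4%. B-like cells numbered only 39 in UT, 7 in BP replicate 2 and 12 in BPI, too few to set a background. Median depths before thinning were 5342 to 20794 UMIs per tumour-like cell, 2417.5 to 6900 per T-like cell and 1367.5 to 7385.5 per B-like cell. The UMIs were spread over many cells: the 5 tumour-like cells with the most Ccl2 held 6.28% of it in BPI and 17.5% in UT.

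The level in tumour-like cells differed within the sets of libraries that share clusters as well as between them. UT was above BP replicate 1 in each of the 3 clusters that they alone shared. In the one led by Apol9a and Apol9b the values were 90.8 against 21.8 CPM. They were 56.7 against 16.7 in the one led by Zfpm2 and Rfx4, and 32.5 against 19.7 in the one led by Apol9a and Olig1. In the cluster led by Gfap and A2m, also held by IgG replicate 2 and CD40, they were 21.2 against 9.20 CPM. In the 2 main tumour-like clusters of IgG replicate 1, BP replicate 2 and BPI, led by Wfdc2 and Pde6a, Ccl2 was 14.2, 28.9 and 52.8 CPM in the first and 10.3, 19.98 and 38.3 CPM in the second. The order of the 3 libraries was the same in both. A group of 29 tumour-like cells of BPI, led by F830016B08Rik, Gadd45g and Apol9a, reached 369 CPM. Over all IgG and BP libraries the treatment and the cluster set cannot be told apart, since BP replicate 1 shares its main tumour-like cluster with UT alone.

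Because tumour-like cells were 47.0% to 83.3% of the cells, a low level per cell still gave a large part of all Ccl2. Their share of the Ccl2 UMIs was 22.8% in UT, 29.8% in IgG replicate 1, 25.8% and 32.4% in the BP pair and 22.4% in BPI, but 3.82% in IgG replicate 2 and 2.71% in CD40. In those 2 libraries microglia-like cells, at 9.54% and 11.1% of the cells, held 85.9% and 84.7% of the UMIs, of which the strict clusters held 1234 of 3256 and 1926 of 5030. Macrophage-like cells held 40.7% in UT and 36.6% in BP replicate 1, the libraries richest in them, and 8.99% to 26.0% elsewhere. Monocyte-like cells were the leading source in BPI (36.8%). Mural-like cells had 2570 CPM of Ccl2 in 6 cells of UT and 2240 CPM in 2 cells of BPI, but 3.44 and 40.7 CPM in the 34 and 32 cells of IgG replicate 2 and CD40.

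**Figure D1:**
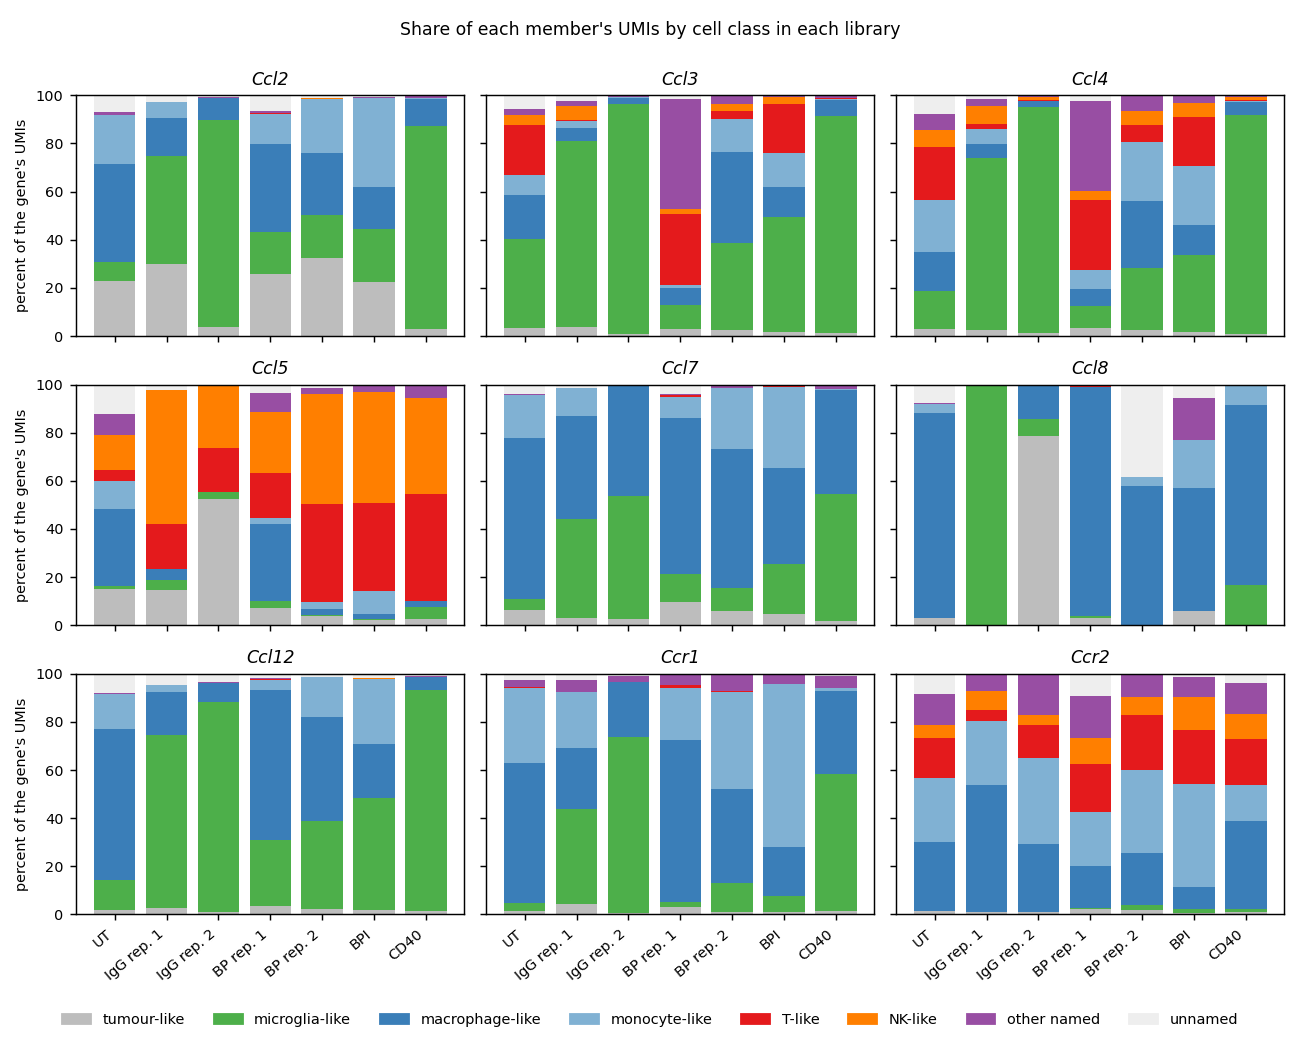
Stacked shares of each gene's UMIs (y axis, percent of the gene's UMIs in a library) by cell class for the 7 libraries (x axis). Microglia-like cells held over 84% of the Ccl2 UMIs in IgG replicate 2 and CD40, and tumour-like cells between 22.4% and 32.4% in the other 5 libraries.

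Ccl7, which binds CCR2 and CCR1 and is the closest neighbour of Ccl2, had its highest level in macrophage-like cells. Macrophage-like cells held 1091 CPM in UT, 724 and 165 in the IgG pair, 259 and 797 in the BP pair, 1289 in BPI and 145 in CD40. The same 3 libraries were lowest as for Ccl2. Macrophage-like exceeded monocyte-like cells in 7 of 7 libraries, where the latter held 1084, 495, 0, 219, 674, 513 and 12.3 CPM. Microglia-like cells held 22.0 to 718 CPM, and in the strict microglia-like clusters the range was 12.1 to 127. Tumour-like cells held 15.5 CPM in UT, 5.0 in BP replicate 1 and at most 2.91 elsewhere, beside 4.64 and 1.75 CPM from free RNA in the first 2. Macrophage-like cells were the source of 39.9% to 66.8% of the Ccl7 UMIs, but microglia-like cells were the largest source in IgG replicate 2 (51.0%) and CD40 (52.7%). In these libraries the strict clusters held 36 of 173 and 104 of 399 microglia-like UMIs, against 156 and 328 in macrophage-like cells.

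Ccl12, the mouse CCR2 ligand also called MCP-5, was higher in microglia-like than in macrophage-like cells in all 7 libraries, but not in the strict microglia-like clusters of 3 of 5. Their level was 2075 CPM in UT, 1820 and 364 in the IgG pair, 630 and 1320 in the BP pair, 3658 in BPI and 338 in CD40. In macrophage-like cells it was 1578, 1350, 271, 362, 1101, 1623 and 85.9 CPM, below microglia-like cells in each library, and monocyte-like cells were lower again in 7 of 7 libraries. In the strict microglia-like clusters Ccl12 was 919 and 194 CPM in the IgG pair, 1000 in BP replicate 2, 1873 in BPI and 195 in CD40, with BPI again highest and IgG replicate 2 and CD40 lowest. These values were below the macrophage-like ones in both IgG libraries and BP replicate 2 and above them in BPI and CD40. Tumour-like cells held 0.23 to 7.68 CPM, and the free RNA estimate there was 0.34 to 8.10 CPM.

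Ccl8, also called MCP-2 and the last gene of the row, was the member with the widest range. Macrophage-like cells held 4328 UMIs (911 CPM) in UT and 129310 UMIs (8893 CPM) in BP replicate 1. In the other libraries they held 0 and 2 UMIs in the IgG pair, 15 in BP replicate 2, 18 in BPI and 9 in CD40, or 0 to 20.4 CPM. The gene was high in 2 libraries of different groups and near 0 in the other 5, and the BP replicates lay on both sides. In BP replicate 1 it was found in most cells of the class: 1163 of 1382 cells had a UMI, or 65.2% after thinning, and the 5 highest cells held 4.94% of the UMIs. In UT 92 of 331 cells had one (12.4% after thinning), and the 5 highest held 41.1%.

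The macrophage-like cells of these 2 libraries were also in other clusters. BP replicate 1 had 598 and 768 cells in 2 clusters with 9645 and 8448 CPM of Ccl8, and UT had 299 cells in a cluster with 963 CPM. The 30 BPI cells in that last cluster held 37.2 CPM. The cluster that held most macrophage-like cells of the other 5 libraries had Ccl8 at 0 to 18.1 CPM, and the 29 UT cells within it had 2.96 CPM. The 9 members and the other genes named Ccl, Ccr, Ccrl2 or Ackr (46 in all) were left out of the clustering, and these values are a description. Elsewhere in BP replicate 1 the level was 204 CPM in microglia-like cells (free RNA estimate 87.4 CPM) and 96.7 in monocyte-like cells (86.0), and UT monocyte-like cells held 148 CPM (7.18). In BP replicate 1 it was 37.6 CPM in tumour-like, 42.6 in T-like, 69.9 in NK-like and 39.3 in B-like cells, beside free RNA estimates of 42.8, 55.9, 63.2 and 53.1 CPM for these classes, and 4.70% to 8.49% of the cells of these 4 classes had a UMI after thinning. Macrophage-like cells held 95.1% of the Ccl8 UMIs in BP replicate 1 and 85.0% in UT. The intervals of these levels, as all intervals here, cover counting error only.

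**Figure D2:**
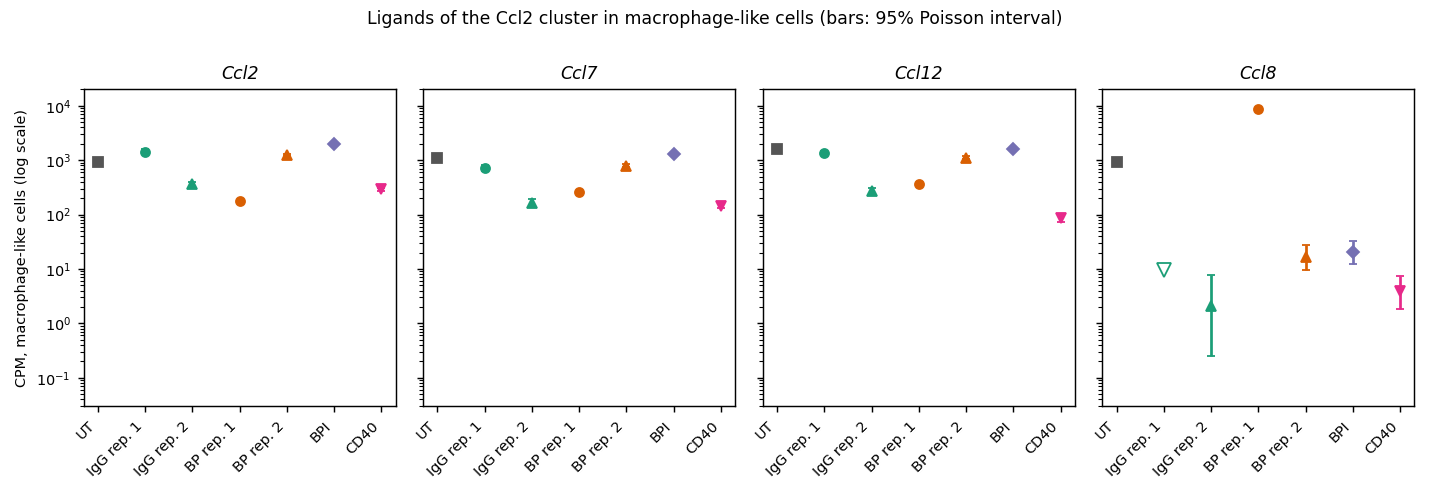
Level of Ccl2, Ccl7, Ccl12 and Ccl8 in macrophage-like cells (y axis, CPM on a log scale) in each library (x axis), with 95% Poisson intervals; an open triangle marks the floor of 3 counts where no UMI was found. Ccl8 reached 911 CPM in UT and 8893 CPM in BP replicate 1 and stayed at or below 20.4 CPM in the other 5 libraries, where the other 3 ligands reached up to 1983 CPM.

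Ccl3 and Ccl4, the macrophage inflammatory proteins 1-alpha and 1-beta, had their highest mean level over the 7 libraries in microglia-like cells among the 6 main classes. Ccl3 there was 1033 CPM in UT, 975 and 957 in the IgG pair, 166 and 788 in the BP pair, 2477 in BPI and 914 in CD40. The values of 5 libraries lay within 788 to 1033 CPM, with BP replicate 1 below and BPI above them, though in UT 5 of 56 cells held 59.2% of the UMIs and the level without them was 421 CPM. Microglia-like exceeded macrophage-like cells in 7 of 7 libraries, where Ccl3 was 77.0, 200, 215, 29.9, 582, 600 and 292 CPM. In the strict microglia-like clusters Ccl3 was 662 and 358 CPM in the IgG pair, 665 in BP replicate 2, 854 in BPI and 373 in CD40.

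Ccl4 in microglia-like cells was 1439, 1887, 1207, 382, 1437, 4804 and 1416 CPM in the order UT, the IgG pair, the BP pair, BPI and CD40. NK-like cells, second by mean level, held 1228, 1741, 2299, 392, 847, 967 and 452 CPM, and were below microglia-like cells in 5 of 7 libraries, by 5-fold in BPI, and above them in IgG replicate 2 and BP replicate 1. Monocyte-like cells held 1116, 1229, 20.2, 500, 1831, 1605 and 177 CPM, and macrophage-like cells 77.4 to 1728 CPM. T-like cells held 867, 314, 43.8, 475, 344, 1388 and 159 CPM. Few cells carried much of it: the 5 highest held 42.2% of these UMIs in BPI, the lowest share. In each IgG library only 3 T-like cells had a UMI. In the strict microglia-like clusters Ccl4 was 1091 and 459 CPM in the IgG pair, 1103 in BP replicate 2, 2116 in BPI and 535 in CD40, below NK-like cells in both IgG libraries and below monocyte-like cells in IgG replicate 1 and BP replicate 2. Plasmacytoid dendritic-like cells had 218 to 2249 CPM in 6 libraries, on 6 to 203 cells. Ccl4 was thus found in many classes, in an order that changed between libraries. Tumour-like cells held at most 2.03 CPM of Ccl3 and 6.45 CPM of Ccl4, which is within the range of the free RNA estimates (0.54 to 2.93 and 0.62 to 7.38 CPM).

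A small class gave a large part of both genes in 1 library. The 48 mast- or basophil-like cells of BP replicate 1 had 14400 CPM of Ccl3 and 25634 CPM of Ccl4, and held 44.4% and 31.7% of that library's UMIs of these genes. Of the 48 cells, 42 had a Ccl3 UMI, and the 5 highest held 34.9% of them. The class had at most 1 cell in each of the other libraries. Microglia-like cells gave 95.5% at most and 9.87% at least of the Ccl3 UMIs, and 93.9% to 9.12% of those of Ccl4. Both highest shares were in IgG replicate 2, where the strict clusters held 1067 of the 7510 microglia-like Ccl3 UMIs and 1368 of the 9472 of Ccl4. T-like cells gave 20.9%, 29.4% and 20.04% of Ccl3 in UT, BP replicate 1 and BPI and 21.9%, 29.0% and 20.5% of Ccl4. In UT T-like cells were the largest source of Ccl4, but 5 of 207 cells held 42.5% of these UMIs. Without them 830 of 1444 UMIs remained.

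In T-like cells Ccl3 was sparse and uneven. There were 4 UMIs in the 39 cells of IgG replicate 1 and 0 in the 58 cells of IgG replicate 2, 1816 in 991 cells of BP replicate 1, 46 in 218 of BP replicate 2, 844 in 568 of BPI, 44 in 112 of CD40 and 414 in 207 of UT. As levels these are 29.2 and 0 CPM in IgG, 193 and 63.6 in BP, 467 in BPI, 64.8 in CD40 and 248 in UT. Both IgG libraries lay below the others. A few cells carried the gene: in BPI 43 cells had a UMI and 5 of them held 68.4% of all, and in BP replicate 1 it was 94 cells and 76.5%. Without the 5 highest cells the level was 148 CPM in BPI and 45.3 CPM in BP replicate 1. Over all T-like cells the microglia list summed to 78.0 to 510 CPM. The 5 mast and basophil markers summed to at most 4.89 CPM, with all 5 at 0 in 5 libraries. These sums do not describe the few cells that carried the gene, and whether RNA of other cells adds to their Ccl3 was not tested. Ccl3 was highest in the T-like cluster led by Ifng (686 CPM, with 2328 CPM of Ccl4), and no UMI of it was found in 2 other T-like clusters. These cluster levels pool all libraries and were not split by library.

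Ccl3 in T-like cells was the only member whose difference passed the test in any class and contrast. It was higher in BPI than in IgG by 5.54 (SE 0.86) on the log2 scale, with an adjusted p of 0.0263 in edgeR's quasi-likelihood test with Benjamini-Hochberg adjustment over all genes. In that comparison 9 of 9257 genes passed (0.0972% of those tested). The ratio of the summed levels was 45.4, with a counting interval of 17.7 to 167, because IgG held 4 UMIs in all. The call did not hold in DESeq2 (adjusted p of 0.904), with doublets kept (0.108) or without IgG replicate 2 (0.150). Over its 10 alternatives the adjusted p ran from 2.56e-17 to 0.904. Within the set of consecutive library numbers, BPI had 844 Ccl3 UMIs in 568 T-like cells against 4 in 39 T-like cells of IgG replicate 1. These classes differ in depth, with 1805389 UMIs of all genes in BPI and 137137 in IgG replicate 1.

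Ccl5 (RANTES), a ligand of CCR1 made by cytotoxic lymphocytes, was highest in NK-like cells in every library. Their level was 14693 CPM in UT, 5902 and 11096 in the IgG pair, 6943 and 11576 in the BP pair, 14152 in BPI and 7993 in CD40. IgG and BP overlapped, and UT and BPI stood above the other 5 libraries. After thinning, 67.7% to 92.4% of NK-like cells held a Ccl5 UMI, against 0% to 7.14% of B-like cells, which numbered 2 to 56 per library. T-like cells, second by mean level among the 6 main classes, held 1071, 1539, 1808, 850, 3398, 4402 and 4218 CPM in the same order of libraries. BP replicate 2, BPI and CD40 stood above both IgG libraries, and UT and BP replicate 1 stood below them. In the IgG pair and UT, 5 cells held 61.1%, 77.5% and 60.5% of these UMIs, against 9.38% in BP replicate 1. Without the UMIs of the 5 highest cells of each library the level was 598 and 406 CPM in the IgG pair, 422 in UT and 770 in BP replicate 1. Those 5 cells were taken from 39 and 58 T-like cells in the IgG pair, 207 in UT and 991 in BP replicate 1. A cut of such unequal parts gives no order of the libraries.

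The other sources of Ccl5 differed between libraries far more than the lymphocytes did. Macrophage-like cells held 2673 CPM in UT and 951 in BP replicate 1, against 162 and 0 in IgG, 167 in BP replicate 2, 535 in BPI and 67.0 in CD40. Monocyte-like cells held 3545 CPM in UT, 420 and 397 in the BP pair and 1109 in BPI, with at most 41.1 in the remaining 3 libraries. Dendritic-like cells held 6641 CPM in UT, 2867 in BP replicate 1 and 2120 in BPI. Within them, the cluster led by Lsp1, Cytip and Samsn1 reached 16403 CPM in UT and 8399 CPM in BP replicate 1 and held no Ccr2 UMI, while the cluster led by Cd74 and Wdfy4 had 121 to 1437 CPM of Ccl5 and 121 to 265 CPM of Ccr2.

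As a result, macrophage-like cells gave 32.3% of the Ccl5 UMIs in UT and 32.3% in BP replicate 1, and NK-like cells gave 14.6% and 25.3%. In IgG replicate 1, BP replicate 2, BPI and CD40, NK-like and T-like cells together were the main source (NK-like 55.8%, 45.7%, 46.2% and 39.5%, T-like 18.6%, 40.7%, 36.4% and 44.5%). In IgG replicate 2 tumour-like cells appeared to give 52.4% of 2463 UMIs, but 5 of 6245 cells held 96.3% of these, and without them the level fell from 10.6 to 0.39 CPM. Tumour-like cells of UT had 188 CPM, where 5 of 2525 cells held 38.5% of the UMIs and the level without them was 116 CPM. After thinning, 6.93% of these tumour-like cells held a UMI, against 5.13% of the 39 B-like cells, too few to set a background. The free RNA estimate was 29.1 CPM.

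**Figure D3:**
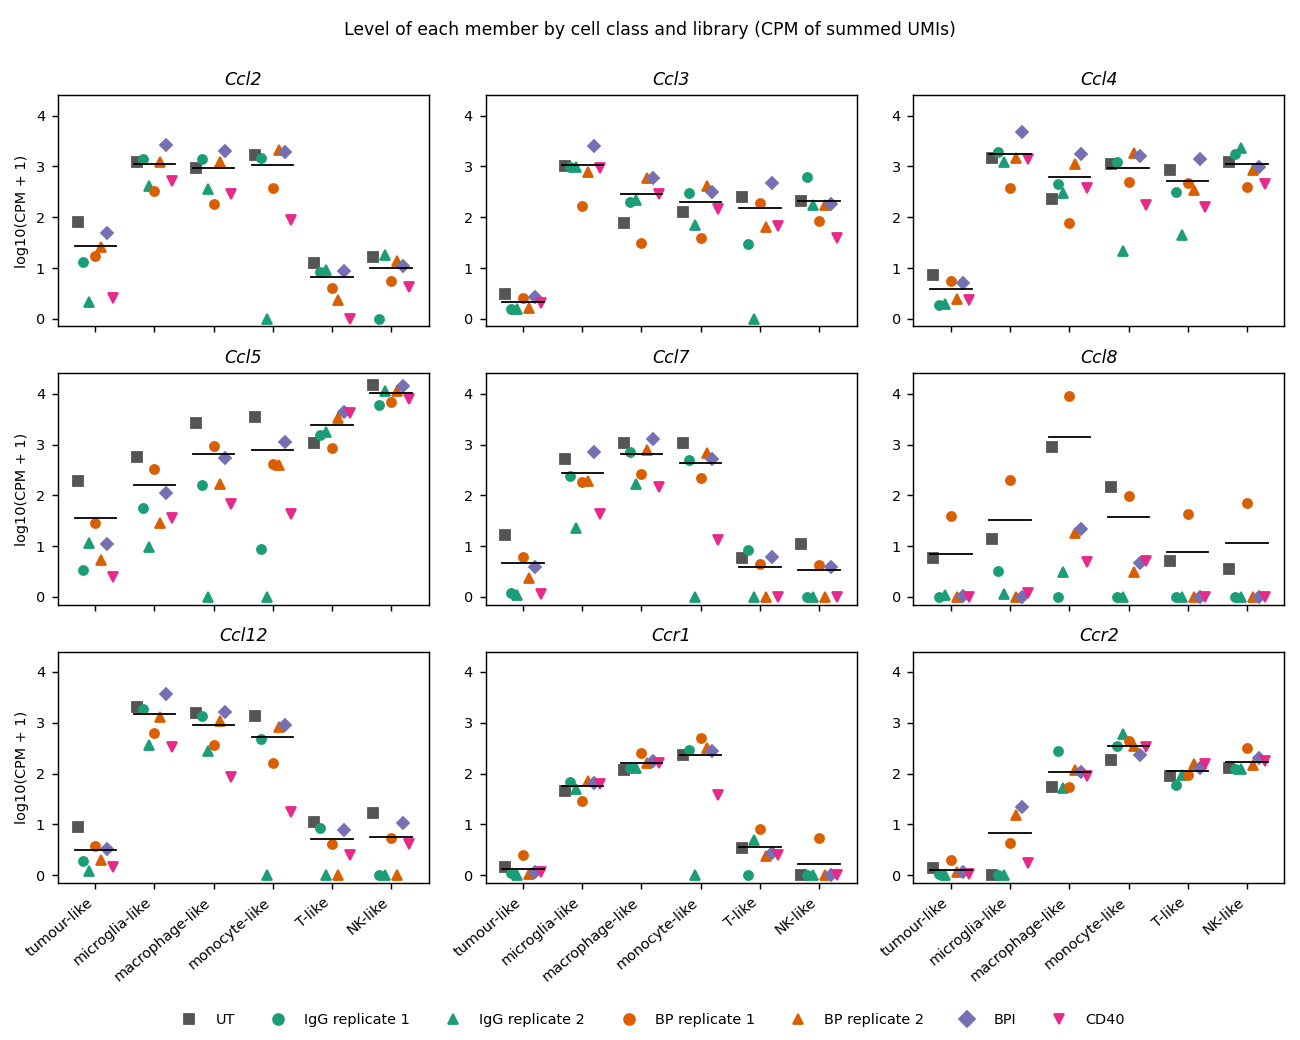
Level of each of the 9 genes (y axis, log10 of CPM + 1) in 6 cell classes (x axis), 1 point per library, with a line at the mean CPM over the 7 libraries. The lines for Ccl2, Ccl7 and Ccl12 stand highest in the 3 myeloid classes, that for Ccl5 is highest in NK-like cells, and Ccr2 is low in microglia-like and tumour-like cells.

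Ccr2, the receptor for Ccl2, Ccl7 and Ccl12, was highest in monocyte-like cells among the 6 main classes and also found in lymphocytes and macrophage-like cells. Monocyte-like cells held 187 CPM in UT, 351 and 606 in the IgG pair, 433 and 344 in the BP pair, 235 in BPI and 325 in CD40. NK-like cells held 128, 121, 121, 310, 147, 198 and 173 CPM and were lower than monocyte-like cells in 7 of 7 libraries. T-like cells held 87.6, 58.3, 91.6, 93.7, 151, 130 and 152 CPM, lower than NK-like cells in 6 of 7. Plasmacytoid dendritic-like cells (113 to 398 CPM in 6 libraries) and dendritic-like cells (78.8 to 379 CPM) had it too, on 3 to 6 cells in the IgG libraries. Plasmacytoid dendritic-like cells were above monocyte-like cells in UT (229 CPM, 35 cells) and CD40 (398 CPM, 9 cells). Over the 7 libraries the mean level was 354 CPM in monocyte-like, 171 in NK-like, 109 in T-like and 107 in macrophage-like cells, so the receptor transcript was shared by several leukocyte classes.

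Macrophage-like cells held less Ccr2 than monocyte-like cells in 7 of 7 libraries, 53.2, 279, 49.8, 54.5, 115, 108 and 86.4 CPM. The monocyte-to-macrophage ratio was 1.26 in IgG replicate 1 and 2.18 to 12.2 in the other 6. T-like cells were above macrophage-like cells in 6 of 7 libraries, all but IgG replicate 1. Macrophage-like cells were the largest source of Ccr2 UMIs in UT (28.6%), IgG replicate 1 (52.7%) and CD40 (36.7%), and monocyte-like cells in the other 4 (22.5% to 42.6%). Microglia-like cells had 0 UMIs in UT and both IgG libraries and at most 21.0 CPM in the others, and the strict microglia-like clusters had 0 UMIs in 4 of 5 libraries and 1 in CD40. No UMI was seen in neutrophil-like or B-like cells, which numbered 1 to 27 and 2 to 56 per library. After thinning, 13.8% to 46.7% of monocyte-like, 7.14% to 25.8% of NK-like and 6.90% to 16.1% of T-like cells had a Ccr2 UMI, against 0% of B-like and at most 0.49% of microglia-like cells. Thus Ccl2 and Ccl12 were high in microglia-like cells, in which their receptor was at or near 0.

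Within monocyte-like cells, 1 cluster had more Ccr2 and less Ccl2 than the other cluster of the same library. The cluster led by Lyz2, S100a4 and Cybb had Ccr2 at 237 CPM in UT, 850 and 668 in the BP pair, 447 in BPI and 275 in CD40, with Ccl2 at 248, 75.1, 111, 274 and 88.9 CPM. The cluster led by Cxcl2 and Il1b had Ccr2 at 243 CPM in BP replicate 2 and 206 in BPI, with Ccl2 at 2591 and 2139 CPM. In UT the Ly6c2-led cluster had 184 CPM of Ccr2 and 2084 CPM of Ccl2, and in BP replicate 1 the Il1rn-led cluster had 259 and 508 CPM. In each of the 4 libraries with 2 such clusters, the Lyz2-led cluster had more Ccr2 and less Ccl2. In UT its Ccr2 was only a little higher (237 against 184 CPM) and came from 38 cells. Neither gene was used to make these clusters, and the values are a description with no test.

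**Figure D4:**
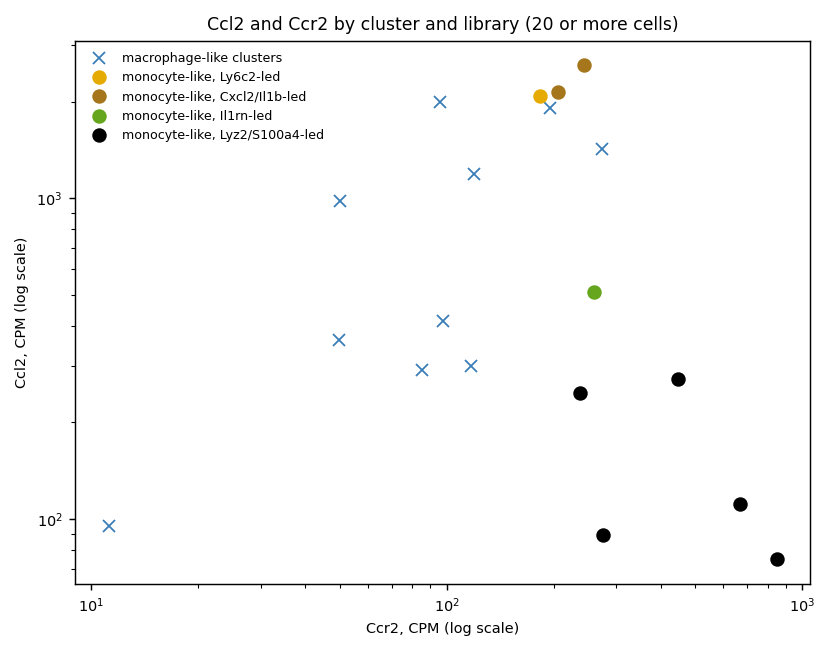
Ccl2 (y axis) against Ccr2 (x axis), both in CPM on log scales, 1 point for each macrophage-like or monocyte-like cluster in a library with 20 or more cells. The Lyz2- and S100a4-led monocyte-like cluster lies at 75.1 to 274 CPM of Ccl2 in 5 libraries, and the Ly6c2-led and Cxcl2-led ones lie above 2000 CPM.

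Ccr1, which binds Ccl3, Ccl5 and Ccl7, was a myeloid receptor in these tumours. Monocyte-like cells held 227 CPM in UT, 295 and 0 in the IgG pair, 495 and 314 in the BP pair, 275 in BPI and 37.0 in CD40. Macrophage-like cells held 114, 127, 128, 247, 160, 176 and 159 CPM, a narrower range in which BP replicate 1 was highest. Microglia-like cells were lower in 7 of 7 libraries, at 28.3 to 69.7 CPM, and the strict microglia-like clusters had 48.7 to 91.2 CPM. T-like cells held at most 6.91 CPM and NK-like cells at most 4.49 CPM. Neutrophil-like cells held 250 to 1807 CPM on 1 to 27 cells per library, above monocyte-like cells in 5 of 7 libraries and below them in IgG replicate 1 and BP replicate 2. Both receptors were found in monocyte-like and macrophage-like cells, while T-like and NK-like cells had Ccr2 with little Ccr1 and microglia-like cells had Ccr1 with little Ccr2. After thinning, 10.1% to 20.1% of macrophage-like and 4.76% to 9.72% of microglia-like cells held a Ccr1 UMI, against at most 0.97% of T-like cells. Microglia-like cells were the largest source of Ccr1 UMIs in IgG replicate 1 (39.2%), IgG replicate 2 (73.1%) and CD40 (56.8%). The largest source was macrophage-like in UT (58.3%) and BP replicate 1 (67.3%), and monocyte-like in BP replicate 2 (40.3%) and BPI (67.6%).

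Several pairs of ligands tended to be found in the same cells, adjacent genes or not. In microglia-like cells of BPI thinned to 1000 UMIs, 91.9% of cells with Ccl3 also had Ccl4, against 36.2% of cells without Ccl3. The same pair gave 81.5% against 11.6% in T-like cells of BPI and 67.6% against 8.25% in those of BP replicate 1. For Ccl2 and Ccl7 in macrophage-like cells it was 59.1% against 8.64% in BPI, 60% against 14.3% in BP replicate 2, 49.4% against 11.4% in BP replicate 1 and 51.9% against 15.2% in UT. Ccl7 and Ccl12 in macrophage-like cells of UT gave 64.6% against 27.2%. Ccl2 and Ccl12, which are not adjacent, gave 63.6% against 19.8% in macrophage-like cells of BPI and 58.6% against 24.7% in those of UT. For Ccr1 and Ccr2 in monocyte-like cells the values were 11.4% against 14.3% in UT, 25.8% against 30.0% in BP replicate 1, 37.5% against 25% in BP replicate 2 and 29.4% against 16.4% in BPI, with no common direction. These shares are descriptions of cells within a library.

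Over all kept cells of a tumour, 21691 genes were tested, of which 0% passed in BPI against IgG. How many of all genes lie above both IgG libraries in BPI was not counted. Ccl5 was 15.1 and 18.1 CPM in IgG, 282 and 99.6 in BP, 397 in BPI, 50.5 in CD40 and 523 in UT. Ccl2 was 37.4 and 27.8 CPM in IgG, 46.3 and 70.5 in BP, 179 in BPI, 46.6 in CD40 and 145 in UT. Both genes were lowest in the IgG pair. Ccr2 was 2.21 and 1.23 CPM in IgG, 29.5 and 7.76 in BP, 18.8 in BPI, 4.19 in CD40 and 11.8 in UT, and Ccr1 was 2.09 and 3.90, 34.99 and 6.01, 13.9, 8.12 and 12.4 CPM. Ccl7 was 7.08 and 2.48 CPM in IgG, 38.1 and 20.4 in BP, 51.7 in BPI, 5.94 in CD40 and 103 in UT, with CD40 inside the IgG range. Ccl3 (15.3 and 57.6 CPM in IgG) was 40.5 and 22.6 in BP, 76.5 in BPI, 77.3 in CD40 and 26.3 in UT, so that BP and UT lay between the IgG replicates and BPI and CD40 above both.

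None of these passed the test over all genes. In the edgeR quasi-likelihood test of the whole tumours, 0 of 21691 genes passed in any of the 4 contrasts (0% in each). At an unadjusted p under 0.05 there were 830 of the 21691 genes in BP against IgG and 574 in BPI against IgG. There were 69 in CD40 against IgG and 44 in BPI against BP. In this order of contrasts, 5, 6, 0 and 3 of them were members. DESeq2 called 433, 230, 2 and 2 of the same 21691 genes, and of the members 5 in BP against IgG and 6 in BPI against IgG. The median log2 difference of the 9 members was 2.55, 2.67, 0.95 and 1.31 in these contrasts, and that of all genes -0.01, -0.06, 0.02 and -0.08. That of 13 other CC chemokines was 2.76, 1.55, 1.69 and -0.71, and that of 13 other CC and atypical receptors 0.67, 0.22, 0.92 and -0.03. In BP and CD40 against IgG the members thus did not exceed the other CC chemokines. The single BPI and CD40 libraries were assumed to vary like the others. All p-values measure the spread between libraries that each pool several mice, not between mice.

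In BPI against IgG the log2 difference was 4.81 (SE 0.59) for Ccl5, 3.64 (SE 0.86) for Ccr2, 3.61 (SE 0.77) for Ccl7, 3.42 (SE 3.33) for Ccl8, 2.67 (SE 0.47) for Ccl2, 2.47 (SE 0.96) for Ccr1, 2.33 (SE 0.51) for Ccl4, 2.28 (SE 0.37) for Ccl12 and 1.35 (SE 0.72) for Ccl3, each with an adjusted p of 1 in edgeR. Without IgG replicate 1 Ccl3 was 0.74 and Ccl7 4.71, and without IgG replicate 2 Ccl3 was 2.43 and Ccl8 4.64. In BP against IgG, Ccl5 was higher by 3.50 (SE 0.52), Ccr2 by 3.37 (SE 0.78), Ccr1 by 2.75 (SE 0.87) and Ccl7 by 2.55 (SE 0.68), and without BP replicate 1 these were 2.73, 2.28, 1.17 and 2.18. Ccl8 in BP against IgG was 12.56 (SE 3.82) with BP replicate 1 and 2.82 without it. In CD40 against IgG no member's value reached an unadjusted p under 0.05. Monocyte- and macrophage-like cells together were 1.16% and 0.79% of cells in IgG, 18.0% and 3.95% in BP, 8.51% in BPI, 1.93% in CD40 and 10.1% in UT, and T-like cells 0.66% and 0.77%, 10.3% and 3.81%, 8.56%, 1.44% and 3.85%. The whole-tumour levels of Ccr1, Ccr2 and Ccl5 were likewise lowest in IgG, and what part of them the cell numbers make was not tested.

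**Figure D5:**
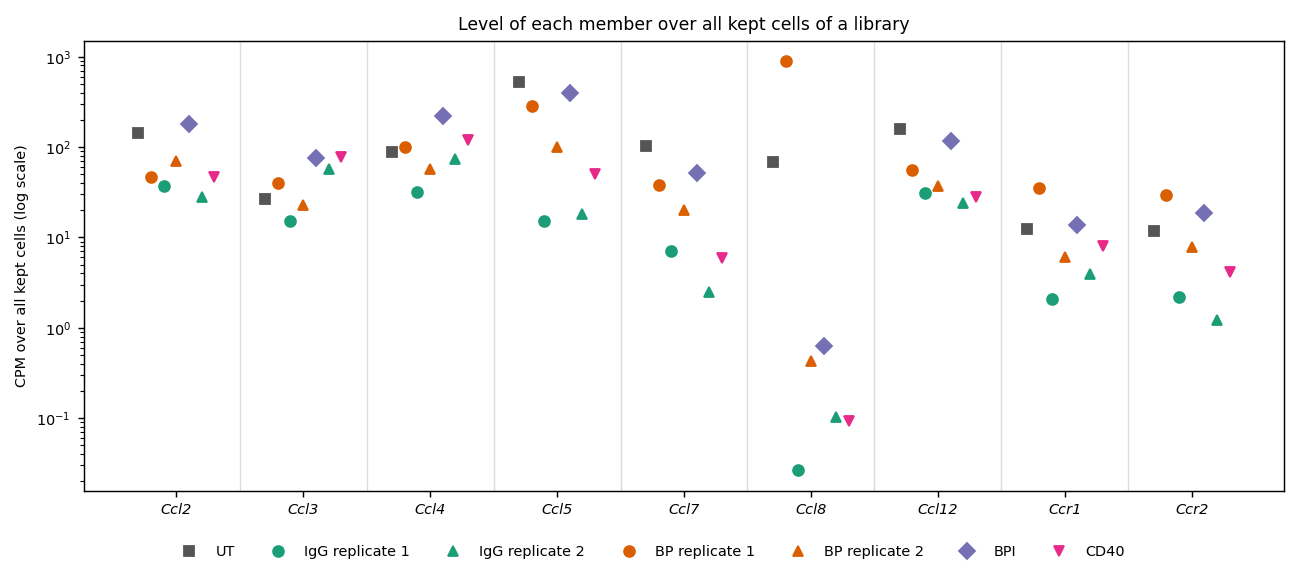
Level of each gene over all kept cells (y axis, CPM on a log scale) for the 9 genes (x axis), 1 point per library. The IgG points are the 2 lowest for Ccl2, Ccl5, Ccr1 and Ccr2, and the Ccl8 points of UT and BP replicate 1 stand far above the other 5.

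Whole-tumour ratios of the members were also taken within the sets of consecutive library numbers, and such ratios were not counted over all genes. BPI over IgG replicate 1 was 4.79 for Ccl2 (counting interval 4.59 to 5.00), 26.3 for Ccl5, 8.50 for Ccr2, 7.31 for Ccl7, 6.90 for Ccl4, 6.64 for Ccr1, 4.99 for Ccl3 and 3.74 for Ccl12. BP replicate 2 over IgG replicate 1 was between 1.21 (Ccl12) and 6.61 (Ccl5) for the same 8 genes. CD40 over IgG replicate 2 was between 1.17 (Ccl12) and 3.40 (Ccr2) for these 8. Ccl8, at 2 to 35 UMIs in these libraries, had a ratio of 24.0 for BPI (counting interval 6.16 to 206) and 16.2 for BP replicate 2 (4.04 to 140) over IgG replicate 1, and of 0.92 for CD40 over IgG replicate 2 (0.39 to 2.14). Each of these sets 1 library beside 1 other, so none has a replicate.

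In macrophage-like cells no member's difference between treatments passed the test. In BPI against IgG the log2 difference was 2.51 (SE 1.15) for Ccl4, 1.83 (SE 0.94) for Ccl7, 1.83 (SE 1.19) for Ccl3, 1.43 (SE 1.10) for Ccl2, 1.29 (SE 0.97) for Ccl12 and 0.76 (SE 0.50) for Ccr1, and the lowest adjusted p of these in edgeR was 0.857. In that contrast 1 of 9391 genes passed (0.0106%), and it was no member. With monocyte-like cells added to the macrophage-like ones, a pooling chosen after seeing the data, 20 of 11290 genes passed (0.177%), again none of them a member. In BP against IgG 0 genes passed in edgeR (625 at an unadjusted p under 0.05, and 63 in DESeq2), with Ccl2 at -0.21, Ccl12 at -0.06, Ccl7 at 0.34, Ccl3 at 0.70 and Ccl4 at 0.80. In CD40 against IgG, Ccl12 was lower at -3.22 (SE 1.20), Ccl2 at -1.61 and Ccl7 at -1.59 (-1.60, -0.25 and -0.13 without IgG replicate 1), with 0 genes passing in edgeR, 100 at an unadjusted p under 0.05 and 2 in DESeq2. The macrophage-like cells of BP replicate 1 lay in 2 clusters of their own, and the BP against IgG values turned on which BP library was left out. Without BP replicate 1, Ccl2 was 0.64, Ccl3 1.67 and Ccl4 1.75, and none passed.

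Without BP replicate 2 these 3 passed in edgeR in the other direction, at -2.46, -2.92 and -2.39, in a fit in which 669 of 9466 genes passed (7.07%). A fit without 1 library, here and below, has a single pair of replicates left to estimate the spread, so that its p-values are weak. In the same fit Ccl3 (1.84), Ccl4 (2.52) and Ccl8 (4.01) passed in BPI against IgG, where 3.01% of genes did, and Ccl2 (3.91), Ccl3 (4.75), Ccl4 (4.91), Ccl7 (2.75) and Ccl8 (-8.33) in BPI against BP, where 2.81% did. Of these, Ccl4 in BPI against IgG passed without BP replicate 1 as well (2.52, with 0.928% of genes), and Ccl8 in BPI against BP without either IgG library (-7.34 and -7.36, with 0.225% and 0.243% of genes).

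For Ccl8 in macrophage-like cells the BP against IgG value was 11.36 (SE 2.59), with an adjusted p of 0.232 in edgeR. It passed in DESeq2 (0.0183), without the filter on low counts (2.16e-20), and without IgG replicate 1 (5.00e-05), IgG replicate 2 (0.00104) or BP replicate 2 (1.07e-10), and not without BP replicate 1 (3.55, adjusted p of 0.542). Without IgG replicate 1 and IgG replicate 2, 2.23% and 0.42% of genes passed. Over its 12 alternatives the adjusted p ran from 2.16e-20 to 0.542, and the value rests on BP replicate 1. The p-values without 1 library again rest on the single pair of replicates left.

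In T-like cells the level of Ccl5 differed by 1.52 in BPI against IgG, 1.33 in CD40 against IgG, 1.16 in BPI against BP and 0.35 in BP against IgG on the log2 scale, and that of Ccr2 by 0.87, 0.96, 0.29 and 0.58. None passed in edgeR (the adjusted p of Ccl5 in BPI against IgG was 0.867). Ccl5 in BPI against IgG and in CD40 against IgG passed when either BP library was left out, at 1.48 or above and at 1.28 and 1.31, in fits in which 1.82% to 1.88% and 0.353% to 0.356% of genes passed. In BP against IgG it passed in opposite directions, at 1.10 without BP replicate 1 (1.01% of genes) and at -1.24 without BP replicate 2 (4.15%), and in BPI against BP it passed without BP replicate 2 (2.73, with 2.72% of genes). In BP against IgG 6 of 9257 genes passed in T-like cells (0.0648%), none of them a member. Tumour-like cells had 0 genes passing in edgeR in any contrast (391, 197, 17 and 28 at an unadjusted p under 0.05, and 61, 6, 0 and 0 in DESeq2).

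Among genes other than the members, the profile over 64 combinations of library and class (17 classes) was most like that of Ccl2 for C3ar1, Fcgr1 and Plau (Pearson r of 0.91, 0.89 and 0.88 on log2 of CPM + 5). For Ccl12 these were C3ar1 (0.93), Fcgr1 (0.90) and Slc11a1 (0.90), and for Ccl7 Ms4a7 (0.93), 4930430E12Rik (0.91) and C3ar1 (0.90). Ccl3 was most like Tnf (0.82), Nfkbiz (0.81) and Vsir (0.77), and Ccl4 most like Fyb (0.88), Tnfaip8l2 (0.87) and Itgb2 (0.86). Ccl5 went with AW112010 (0.90), Klrk1 (0.88) and Slamf7 (0.81), and Ccr2 with Runx3 (0.87), AI662270 (0.85) and Klrk1 (0.85). Ccr1 went with Il1b, Lilrb4a and Igsf6 (0.91 each). Ccl8 stood apart, with Arg1 (0.88), Ccl24 (0.76) and Tarm1 (0.68) and no member above 0.46 (Ccr1), whereas Ccl2 reached 0.94 with Ccl7 and Ccl3 0.88 with Ccl4. The profiles share libraries, cell classes and depth, so these values are descriptions.

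Of the other genes of the pathway, 13 other CC chemokines, 13 other CC and atypical receptors, 16 genes of receptor signalling and 13 NF-kB or interferon inducers were read from the same fits. Over whole tumours and in macrophage-like cells none passed in any contrast. In T-like cells 1 of 3 tested chemokines passed, Ccl1, a ligand of CCR8. No UMI of it was counted in either IgG library, where a floor of 3 counts is 21.9 and 11.9 CPM. Its level was 377 and 152 CPM in BP, 222 in BPI, 45.6 in CD40 and 453 in UT. With 0 UMIs in IgG, Ccl1 entered the test only through the other groups. It was higher in BP (adjusted p of 0.0096 in edgeR) and in BPI (0.0057) than in IgG, but in BP against IgG no gene passed with doublets kept or with the replicate number as a block. Of the 12 tested inducers, Ifng passed in BPI against IgG, at 43.8 and 75.7 CPM in IgG, 367 and 412 in BP, 1597 in BPI, 45.6 in CD40 and 331 in UT. Its log2 difference was 4.80 (SE 0.52, adjusted p of 0.00197 in edgeR). Ifng also led the T-like cluster in which Ccl3 and Ccl4 were highest, in levels pooled over all libraries.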

How the data were processed

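Per the file headers the authors' deposited counts are raw UMIs of each gene in every barcode, from Cell Ranger 4. The submitters' processing notes name version 7.0.1 and mm10. Droplet chemistry is given as V2 per the labels' protocols, although the UT barcodes come from another list than the rest. Which kit served UT is not given in the sources used here.

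Cells were barcodes of 1000 or more UMIs and 500 or more genes with no more than 15% mitochondrial UMIs, and the highest Scrublet scores of each library (0.8% per 1000 cells) were removed as doublets (scanpy 1.11.5). Clustering left out the 46 genes named Ccl, Ccr, Ccrl2 or Ackr, the members among them, and used 2000 variable genes, 30 principal components, 15 neighbours and resolution 1 without batch correction (igraph 0.11.9, python 3.11.15). Mixed groups were clustered again with 20 components, at resolution 0.5 for vascular and neural cells. A cluster was named from 20 marker lists with at least 3 raised markers (20 CPM or more, and 4 times the lower-quartile cluster plus 5 CPM). The naming rule was set after seeing the data. Free RNA was estimated from barcodes of 10 to 100 UMIs.

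Sums of the counts by class and library went into edgeR 4.0.16, quasi-likelihood test (R 4.3.3; TMM, filterByExpr, Benjamini-Hochberg over all genes of a class and contrast at 0.05), checked on simulated data. The 6 libraries other than UT shared 1 fit, and UT entered levels only. Classes with under 20 cells in a library of the fit were not tested (monocyte-like, 15 cells, and NK-like, 17 cells), so that the value of a member was read in the highest class tested, macrophage-like or T-like. The planned fit of microglia-like cells called 0 genes in each contrast and was not read, because most of its clusters failed the marker check. DESeq2 1.42.0 and the other alternatives are in the closing section. Intervals are exact 95% Poisson intervals. Levels without the 5 highest cells leave out the member's UMIs in these cells, over the unchanged total of the class.

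All 9 members were named whatever their values, other pathway genes where they passed the test, and the 3 most alike genes per member by Pearson correlation of log2(CPM + 5) among genes reaching 20 CPM in a profile of 20 or more cells. The members, lists and tests were chosen with earlier results of these data known. Genes named as leading a cluster, Ccl3 in mast- or basophil-like cells and the strict microglia-like clusters were chosen after their values were seen. Positions come from GENCODE for GRCm38. Replicate numbers are not stated to pair the samples. The other tumour model of the series was not analysed here.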

Additional observations from a re-analysis of the deposited data

How the results depend on the processing

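Alternatives left 141 of 214 counts of genes within 1.5 times the count reported. Most counts reported were 0, and a 0 that stayed 0 is among the 141. Of the members' log2 values, 354 of 407 by class and 348 of 369 over whole tumours kept direction and side of the threshold. Only Ccl3 in T-like cells had passed, so nearly all of these values had stayed uncalled. These tallies thus give little measure of stability. For the other counts and values the cause was not tested. Contrasts below are BP, BPI and CD40 against IgG and BPI against BP, in this order. DESeq2 called 433, 230, 2 and 2 genes over whole tumours, 61 and 6 in tumour-like cells (first 2 contrasts), 63, 36 and 2 in macrophage-like cells (first 3), 31 and 19 in T-like cells (first 2), and 52 and 21 in microglia-like cells with 2 in BPI against BP. In DESeq2 the whole-tumour values that passed were, in BPI against IgG, Ccl2 2.68, Ccl4 2.34, Ccl5 4.83, Ccl7 3.62, Ccl12 2.30 and Ccr2 3.66, and in BP against IgG, Ccl5 3.48, Ccl7 2.53, Ccl8 12.68, Ccr1 2.72 and Ccr2 3.34. With no filter the counts were 301, 160, 38 and 61 in microglia-like, 300, 166, 22 and 27 in macrophage-like and 161, 88, 7 and 28 in T-like cells. With doublets kept they were 4 and 5 in macrophage-like and 0 and 2 in T-like cells (first 2 contrasts) and 1 in microglia-like cells (BPI against IgG). Cells of at least 2000 UMIs gave 3 and 2 in macrophage-like cells and 1 in T-like cells (CD40 against IgG). With free RNA subtracted, BPI against IgG gave 0 in macrophage-like and 5 in T-like cells, BP against IgG gave 2 in T-like cells, and the mean microglia-like levels were 1412 CPM for Ccl3 and 2470 CPM for Ccl4. Upper-quartile scaling gave 5 in T-like cells, and pooling macrophage- with monocyte-like cells, chosen after seeing the data, gave 20, both for BPI against IgG.

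Values that changed sign in macrophage-like cells were Ccl2 0.094 and Ccl12 0.069 (BP against IgG, pooled with monocyte-like cells), Ccr1 -0.11 (BPI against BP, doublets kept), and Ccl4 in CD40 against IgG, at -0.0048 in DESeq2, -0.00076 with at least 2000 UMIs, -0.037 with doublets kept, -0.010 with free RNA subtracted and -0.44 when pooled. Whole-tumour Ccl12 was 0.019 (CD40 against IgG, doublets kept). With a replicate block, BP against IgG called 0 genes in T-like, 11 in macrophage-like and 2 in microglia-like cells, and the values were Ccl3 -0.62, Ccl4 -0.31 and Ccl12 0.055 in macrophage-like cells, Ccl5 -0.13 in T-like cells and Ccl3 0.042 over whole tumours. Same-numbered libraries deviated in opposite directions (correlation -0.64 over whole tumours), and crossed pairs, added after seeing the data, called 10 genes in tumour-like, 270 in macrophage-like and 145 in T-like cells.

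Leaving out 1 library at a time gave 5 to 669, 15 to 285, 0 to 13 and 0 to 266 genes in macrophage-like cells and 4 to 365, 4 to 160, 0 to 31 and 0 to 239 in T-like cells, the highest each time without BP replicate 2 and the lowest without IgG replicate 2 or BP replicate 1, and 0 to 1 in microglia-like cells (BPI against IgG). Macrophage-like values of BP against IgG ran from -2.46 to 1.14 for Ccl2, -2.92 to 1.67 for Ccl3, -2.39 to 1.75 for Ccl4, -0.89 to 1.80 for Ccl7 and -1.29 to 1.56 for Ccl12, those of BPI against BP from -8.33 to 0.41 for Ccl8 and -0.056 to 0.26 for Ccr1, and that of CD40 against IgG from -0.28 to 0.40 for Ccl4. In T-like cells Ccl5 ran from -1.24 to 1.10 (BP against IgG) and Ccr2 from -0.19 to 0.82 (BPI against BP). Over whole tumours Ccl3 ran from -0.76 to 0.89 (BP against IgG), Ccl7 from -0.56 to 1.17, Ccl8 from -0.21 to 1.48 and Ccl12 from -0.45 to 0.14 (CD40 against IgG), and Ccl8 from -10.14 to 0.67, Ccr1 from -1.02 to 1.31 and Ccr2 from -0.34 to 1.38 (BPI against BP). Depth limits the NK-like, T-like and monocyte-like values of the IgG libraries, which held 44 and 17 NK-like, 39 and 58 T-like and 27 and 15 monocyte-like cells.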
